A study of Homo sapiens with 12 samples.

Results

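The mRNA levels of 10 genes, grouped as G1 cyclins and replication licensing genes, were followed in HepG2 cells over 240 min of insulin stimulation. ZNF367, which encodes a zinc finger protein, is part of this group, and no role in G1 or licensing is taken for it here. The genes were chosen by name, as the rows of the deposited gene count table for CCND1, CCNE1, CCNE2, E2F1, CDC6, CDT1, MCM2, MCM5, MCM6 and ZNF367. All 10 were found among the 26364 genes of the table, and all 10 passed the filter on low counts that left 13852 genes for testing. This rule uses no measured value, but the 10 genes were chosen with earlier results of these data known. HepG2 is a line of hepatocyte-like cells derived from a human hepatocellular carcinoma, and RNA-seq libraries were made at 0, 5, 10, 30 and 240 min after insulin, with 2 replicates at each time. No allele, knockdown or second agent is named for any RNA-seq library, and by the labels every group had the same cells and the same pre-treatment. The labels describe growth in EMEM with serum, then EMEM alone, then EMEM with BSA and 3 nM insulin for 5 min. That treatment text is the same for every RNA-seq library, the 0 min ones included, and the text on library preparation deposited with them describes a DNA kit, so the times used here come from the library titles and the insulin concentration of the time course is not settled by these sources. For HepG2 cells the study's methods also describe days of culture in physiologic or pathologic insulin, and a washout, before acute insulin. Which of these the RNA-seq libraries had is not settled by these sources. No library was kept for 240 min without insulin, so insulin and the time since the change of medium cannot be told apart. The study's methods describe its RNA-seq as a single experiment on biologically independent samples, and the labels do not say which cultures the replicates came from, so p-values measure the spread between these libraries within 1 experiment. In bulk RNA, fewer cells of a type and less RNA per cell cannot be told apart.

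Cells commit to a new round of division in G1, when D-type cyclins with CDK4 or CDK6, and then E-type cyclins with CDK2, phosphorylate the retinoblastoma protein and release E2F factors. E2F factors drive genes for DNA replication, among them genes for origin licensing, in which CDC6 and CDT1 bring the MCM helicase to origins bound by the origin recognition complex. Adult hepatocytes are mostly quiescent and re-enter the cycle when liver tissue is lost, with a rise in cyclin D1, whereas HepG2 cells divide in culture.

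At 240 min against 0 min, 6 of the 10 genes rose and 0 fell. ZNF367 and CCNE2 rose 2.6-fold each, CDC6 1.84-fold, CCNE1 1.82-fold, MCM6 1.30-fold and CCND1 1.27-fold, whereas E2F1, CDT1, MCM2 and MCM5 did not pass the test. The larger rises were those of both E-type cyclins, the licensing factor CDC6 and ZNF367, and the smaller ones those of cyclin D1 and 1 subunit of the helicase. Of all genes tested, 41.0% were called at 240 min, 20.6% as higher and 20.4% as lower, so a call in itself was common at this time. The median log2 fold change was 0.36 over the 10 genes and -0.0026 over all genes tested. At 30 min 1 of the 10, ZNF367, was higher and 1, E2F1, was lower, against 0.188% and 0.144% of all genes tested in these directions and 0.332% in both.

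Gene counts summed to between 18347109 and 45005769 per RNA-seq library, with the highest sum in replicate 2 at 0 min. Levels are given as CPM, gene counts relative to the TMM-adjusted total of the library, which suits a comparison of 1 gene between libraries, and as TPM, the length-scaled abundance that the authors deposited, where different genes are compared. A gene was called when its Benjamini-Hochberg adjusted p-value over all 13852 genes was under 0.05 in edgeR's quasi-likelihood test. For the cell type markers alone, CPM are relative to the library total without the TMM adjustment. Hepatocyte markers were abundant in all libraries, ALB at 14399.8 to 20108 CPM, and the summed level of 6 such markers was 28423 to 36951 CPM. It was lowest in replicate 2 at 30 min and replicate 2 at 240 min, with 28423 and 28963 CPM, against 35163 and 36375 CPM in the other replicates of these times, and the part of this in the results was not tested. The 8 markers of leukocytes, endothelium and fibroblasts summed to 4.10 to 6.49 CPM, and PTPRC, the defining marker of leukocytes, was at 0 in every library. The 2 libraries of each time differed by more than counting noise (chi-square over degrees of freedom between 2.75 and 6.13) and counted as 2 samples.

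The promoter sequences of 5 of the genes are shown because genes of this pathway are textbook targets of E2F and because 3 of the 5 passed the test at 240 min and 2 did not. RefSeq promoter windows, from 250 bases before to 50 bases after the start of the gene on GRCh38.p14, were found for 7 of the 10 genes, not for CCND1, CCNE2 and MCM5. The letters TTTCCCGC, TTTGGCGC, TTTCGCGC and TTTGGCGG, forms of the E2F site, were searched on both strands. The stretch from 200 bases before to 20 bases after the start is printed 5′ to 3′ on the gene's strand, with E2F letters in capitals. CDC6 (chr17:40287679-40287898, plus strand), ZNF367 (chr9:96418351-96418570, minus strand) and MCM6 (chr2:135876424-135876643, minus strand) rose at 240 min, whereas CDT1 (chr16:88803589-88803808, plus strand) and MCM2 (chr3:127598211-127598430, plus strand) did not pass the test there.
CDC6: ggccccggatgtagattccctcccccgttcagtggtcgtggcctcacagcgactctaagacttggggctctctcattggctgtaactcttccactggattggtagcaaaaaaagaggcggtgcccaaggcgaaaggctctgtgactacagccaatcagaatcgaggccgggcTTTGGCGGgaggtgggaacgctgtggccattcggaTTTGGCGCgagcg
ZNF367: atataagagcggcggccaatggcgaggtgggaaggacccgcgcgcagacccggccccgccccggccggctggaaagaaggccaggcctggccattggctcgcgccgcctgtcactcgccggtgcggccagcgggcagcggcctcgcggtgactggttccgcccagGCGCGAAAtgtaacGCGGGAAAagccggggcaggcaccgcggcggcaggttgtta
MCM6: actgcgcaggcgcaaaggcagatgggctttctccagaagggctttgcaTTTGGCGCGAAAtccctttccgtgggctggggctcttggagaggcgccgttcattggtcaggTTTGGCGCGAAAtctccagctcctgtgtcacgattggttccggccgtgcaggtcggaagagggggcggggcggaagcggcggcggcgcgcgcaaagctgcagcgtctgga
CDT1: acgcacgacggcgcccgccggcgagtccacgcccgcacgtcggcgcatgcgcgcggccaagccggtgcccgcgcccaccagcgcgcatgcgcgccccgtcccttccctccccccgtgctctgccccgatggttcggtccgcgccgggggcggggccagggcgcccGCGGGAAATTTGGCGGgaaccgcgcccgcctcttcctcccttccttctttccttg
MCM2: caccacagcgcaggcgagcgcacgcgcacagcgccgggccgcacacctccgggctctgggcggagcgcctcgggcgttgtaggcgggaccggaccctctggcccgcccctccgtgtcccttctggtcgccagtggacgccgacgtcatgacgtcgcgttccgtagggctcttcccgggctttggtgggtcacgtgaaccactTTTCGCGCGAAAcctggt

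E2F letters were present in 6 of the 7 windows, against 3.35% of the 35116 RefSeq promoters of this length and 4.80% of the 14707 promoters of genes tested here. Genes that rose at 240 min and genes that did not pass the test there both had them. In CDC6 their first base lay 28 bases before and at base 8 after the start, with no overlap. The CDT1 letters began 35 and 27 bases before the start and lay end to end, in opposite orientation, while those of ZNF367 began 35 and 21 bases before it. In MCM6, overlapping pairs in opposite orientation began 152 and 148 bases before the start and again 90 and 86 bases before it, and in MCM2 such a pair began at bases 3 and 7 after the start. E2F1 had 1 match, 20 bases before its own start. The window of CCNE1, which rose at 240 min and is not printed, held none of these letters. This says only that they are not in this stretch. The letters CCAAT, also searched on both strands, were in 4 of the 7 windows (CDC6, E2F1, MCM6 and ZNF367), against 34.6% of all promoters. A match of letters was not tested as a binding site.

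**Figure D1:**
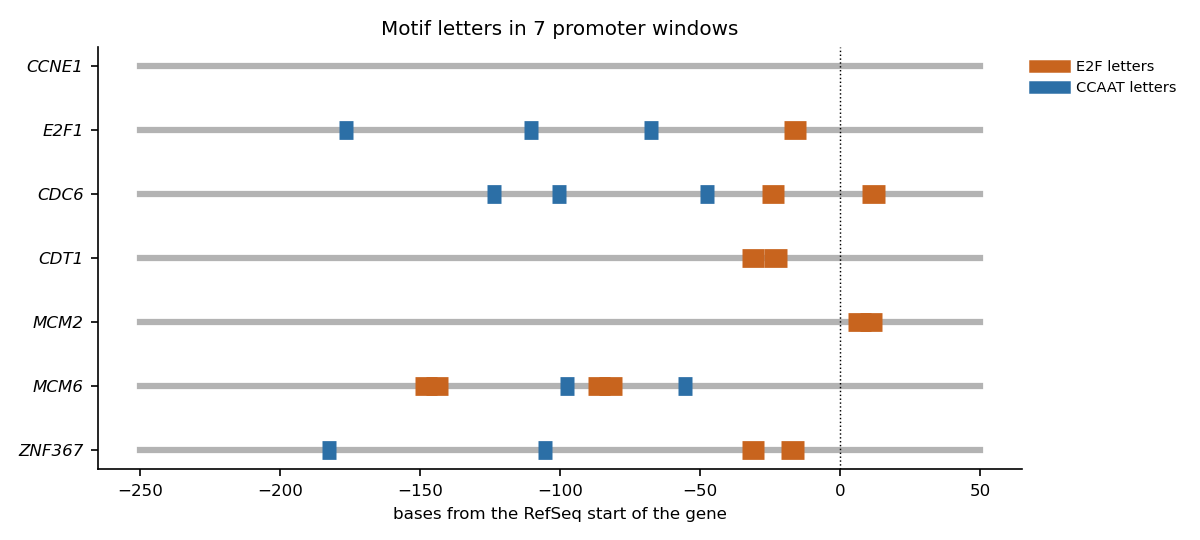
Positions of E2F letters (orange) and CCAAT letters (blue) in the RefSeq promoter windows of 7 genes, with bases from the start of the gene on the x axis. E2F letters are in 6 of the 7 windows and lie within 35 bases of the start in CDC6, CDT1, E2F1, MCM2 and ZNF367, and farther upstream in MCM6.

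CCND1, which encodes cyclin D1, the partner of CDK4 and CDK6, was the most abundant of the 10 transcripts at every time, with 263 and 269 TPM in the 2 replicates at 0 min. MCM2, MCM5, CDC6, E2F1, CCNE1, MCM6, CDT1, ZNF367 and CCNE2 followed at 0 min in this order of mean TPM, from 59.6 and 58.0 TPM for MCM2 to 4.99 and 4.77 TPM for CCNE2, and only CDC6 and E2F1 overlapped as neighbours in it. At 240 min CDC6 was second with 93.3 and 90.5 TPM followed by CCNE1 with 76.9 and 74.8 TPM. The level of CCND1 was 460.3 and 464.1 CPM at 0 min, 478.3 and 437.9 CPM at 5 min, 474.6 and 485.1 CPM at 10 min, 463.8 and 509.0 CPM at 30 min, and 550.0 and 623.0 CPM at 240 min. Both libraries at 240 min lay above the 8 others, and the libraries up to 30 min overlapped, apart from both at 10 min being above both at 0 min. At 240 min CCND1 was higher than at 0 min by a log2 fold change of 0.34 (SE 0.062, adjusted p = 1.85e-04). The 2 replicates at 240 min differed by more than any other pair of CCND1 values within a time, and the log2 fold change was 0.25 to 0.43 when single replicates were left out.

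CCNE1 encodes cyclin E1, which activates CDK2 at the end of G1. Its level was 32.1 and 32.1 CPM at 0 min, 30.3 and 31.4 CPM at 5 min, 29.4 and 31.8 CPM at 10 min, 31.3 and 30.4 CPM at 30 min, and 59.8 and 57.1 CPM at 240 min. The first 8 libraries lay within a narrow band and the 2 at 240 min were far above it. At 240 min the log2 fold change of CCNE1 was 0.87 (SE 0.061, adjusted p = 3.52e-09).

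CCNE2 encodes cyclin E2, the other E-type cyclin, and was the rarest of the 10 transcripts at 0 min per length. It was counted at 5.57 and 5.39 CPM at 0 min, 6.49 and 5.98 CPM at 5 min, 5.85 and 6.43 CPM at 10 min, 6.32 and 7.24 CPM at 30 min, and 14.2 and 14.2 CPM at 240 min. At each of the earlier times with insulin both libraries lay above both libraries at 0 min, by amounts that did not pass the test, and at 240 min both were again far higher. For CCNE2 the log2 fold change was 0.30 at 30 min (SE 0.12, adjusted p = 0.517) and 1.38 at 240 min (SE 0.11, adjusted p = 1.40e-08). As few as 120 reads, in replicate 1 at 0 min, lay behind these values, and the standard error was larger than for CCNE1.

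The balance of the cyclins can be read within each library as a ratio of TPM values, which does not depend on the library scaling. The ratio of CCNE1 to CCND1 lay between 0.132 and 0.157 in the 8 libraries up to 30 min and was 0.239 and 0.201 at 240 min. Both libraries at 240 min were above all others, although CCND1 was still the more abundant transcript. The ratio of CCNE2 to CCNE1 was 0.124 and 0.117 at 0 min, 0.132 to 0.162 from 5 to 30 min, and 0.164 and 0.176 at 240 min.

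**Figure D2:**
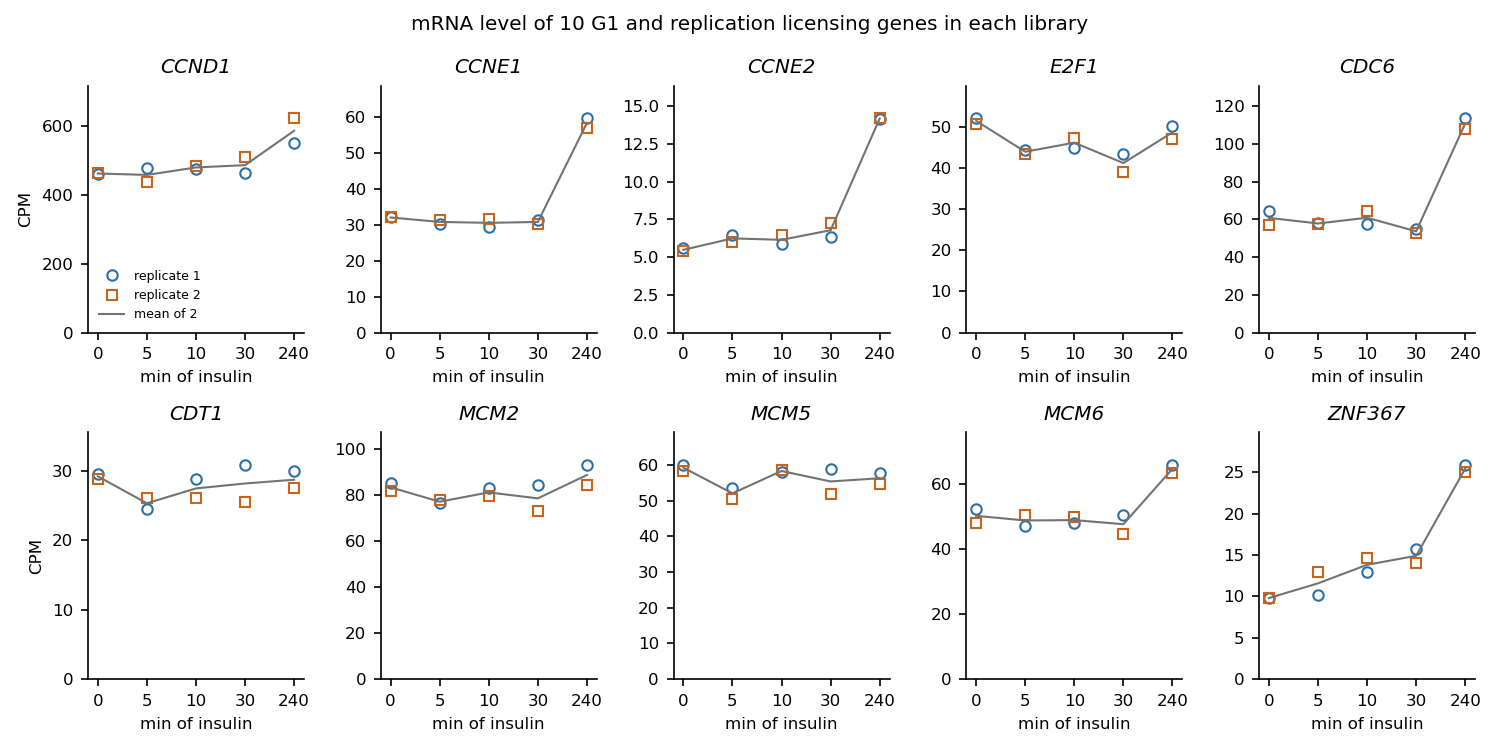
CPM of the 10 genes (y axis, from 0) in each library against the time of insulin (x axis, the 5 times evenly spaced), with replicate 1 as circles, replicate 2 as squares and a line through the means of 2. CCNE1, CCNE2, CDC6 and ZNF367 stand apart at 240 min, for example CCNE1 with 59.8 and 57.1 CPM against 29.4 to 32.1 CPM in the 8 earlier libraries.

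E2F1, the transcription factor released when the retinoblastoma protein is phosphorylated, took another course. Its level was 52.2 and 50.8 CPM at 0 min, 44.4 and 43.6 CPM at 5 min, 45.0 and 47.4 CPM at 10 min, 43.4 and 39.1 CPM at 30 min, and 50.3 and 47.1 CPM at 240 min. Every library after 0 min lay below both libraries at 0 min, with the lowest at 30 min. The log2 fold change at 30 min against 0 min was -0.31 (SE 0.062, adjusted p = 0.0284), a level of 0.804 times that at 0 min. From 30 to 240 min E2F1 rose by 0.24 on the log2 scale (SE 0.064, adjusted p = 0.00597), which was lost without replicate 2 at 30 min (adjusted p = 0.0809) or without replicate 1 at 240 min (0.0944). At 240 min it did not pass the test against 0 min (log2 fold change -0.08, 95% interval -0.20 to 0.05, adjusted p = 0.346).

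The call of E2F1 at 30 min rested on small differences between 4 libraries. The adjusted p was 0.0339 with DESeq2, 0.0516 with only these times in the model and 0.346 with limma on log2(TPM + 1). Leaving out replicate 1 at 0 min gave 0.283, leaving out replicate 2 at 0 min 0.106 and leaving out replicate 2 at 30 min 0.461, while the direction was the same each time. Leaving out replicate 1 at 30 min kept the call, with an adjusted p of 0.0247. The unadjusted p of the E2F1 difference from 0 min was 0.00176 at 5 min and 0.0197 at 10 min, and neither passed after adjustment.

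CDC6 encodes the ATPase that binds the origin recognition complex and recruits the helicase. Its level was 64.6 and 57.1 CPM at 0 min, 58.0 and 57.7 CPM at 5 min, 57.3 and 64.5 CPM at 10 min, 54.9 and 52.6 CPM at 30 min, and 113.7 and 108.2 CPM at 240 min. Both libraries at 30 min were the lowest of all, and the 2 at 240 min were well above the 8 others. The log2 fold change was -0.17 at 30 min (SE 0.066, adjusted p = 0.496) and 0.88 at 240 min against 0 min (SE 0.063, adjusted p = 4.74e-09). From 30 to 240 min it was 1.05 (adjusted p = 5.95e-10), the smallest adjusted p of the 10 genes in that comparison.

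CDT1 encodes the partner of CDC6 in loading the helicase. Its level was 29.6 and 28.8 CPM at 0 min, 24.5 and 26.1 CPM at 5 min, 28.8 and 26.1 CPM at 10 min, 30.9 and 25.5 CPM at 30 min, and 29.9 and 27.5 CPM at 240 min. The libraries of 0 and 240 min overlapped, and the 2 replicates at 30 min spanned almost the whole range of the course. At 240 min the log2 fold change was -0.02, with a 95% interval of -0.19 to 0.16 (adjusted p = 0.885). The ratio of CDC6 to CDT1 TPM was 1.53 to 2.14 in the 8 libraries up to 30 min and 3.30 and 3.37 at 240 min.

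MCM6, MCM2 and MCM5 encode subunits of the helicase, and of these MCM6 alone passed the test against 0 min, though not with scaling by ERCC spike-ins. MCM6 had 52.5 and 48.1 CPM at 0 min, 47.3 and 50.4 CPM at 5 min, 48.1 and 49.8 CPM at 10 min, 50.7 and 44.7 CPM at 30 min, and 66.0 and 63.5 CPM at 240 min. Both libraries at 240 min were above the 8 others, which overlapped among themselves. Against 0 min the log2 fold change of MCM6 at 240 min was 0.37 (SE 0.065, adjusted p = 1.25e-04).

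MCM2 had 85.0 and 81.6 CPM at 0 min, 72.8 to 84.1 CPM from 5 to 30 min, and 93.1 and 84.1 CPM at 240 min. One library at 240 min was the highest of the course and the other lay between the libraries at 0 min. Its log2 fold change was 0.10 at 240 min against 0 min (95% interval -0.04 to 0.23, adjusted p = 0.246) and 0.17 at 240 min against 30 min (adjusted p = 0.0399). The latter was lost with DESeq2 (adjusted p = 0.0832), with only the times compared in the model (0.0873), with ERCC scaling (0.707) and in the limma fits on TPM (0.0773 to 0.131). It was also lost without replicate 2 at 30 min (0.423) or without replicate 1 at 240 min (0.397).

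MCM5 had 60.1 and 58.5 CPM at 0 min, 53.6 and 50.5 CPM at 5 min, 51.9 to 59.0 CPM at 10 and 30 min, and 57.9 and 54.8 CPM at 240 min, so that both libraries at 240 min lay below both at 0 min. The log2 fold change at 240 min was -0.07 (95% interval -0.20 to 0.06, adjusted p = 0.390). As a ratio of TPM within each library, MCM6 to MCM5 was 0.554 to 0.671 up to 30 min and 0.767 and 0.784 at 240 min, and MCM6 to MCM2 was 0.536 to 0.595 up to 30 min and 0.653 and 0.694 at 240 min. The 3 subunits assemble into 1 ring, and their transcripts did not keep 1 ratio over the course.

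**Figure D3:**
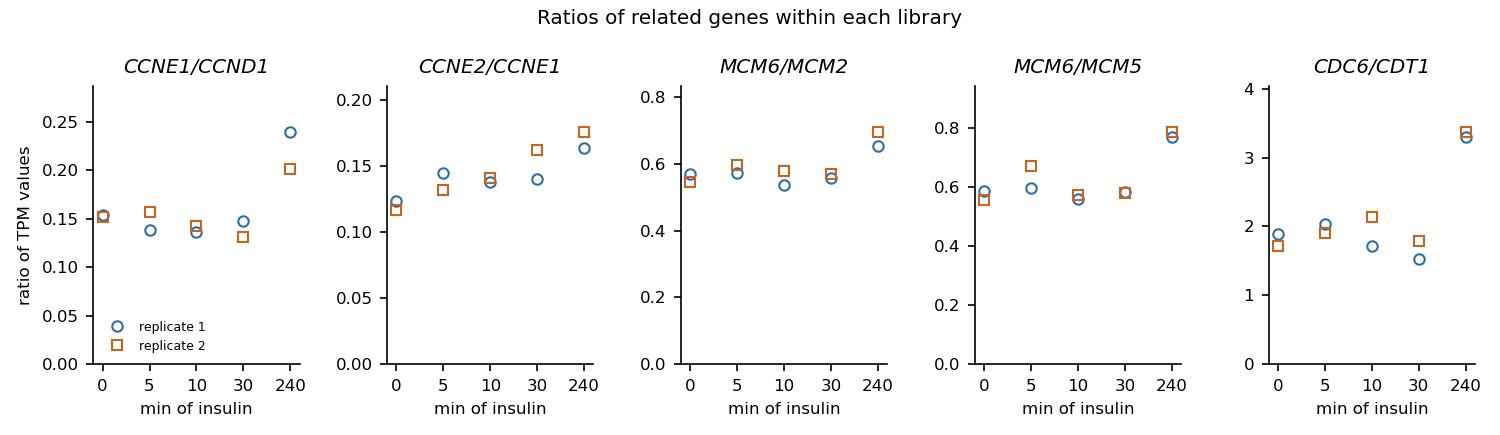
Ratios of TPM values of related genes (y axis, from 0) within each library against the time of insulin (x axis, evenly spaced), with replicate 1 as circles and replicate 2 as squares. The CDC6 to CDT1 ratio is 3.30 and 3.37 at 240 min and at most 2.14 before, and each of the 5 ratios has both libraries at 240 min above all 8 earlier ones.

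ZNF367, which encodes a zinc finger protein, was the single gene of the 10 with a rise called before 240 min. Its level was 9.84 and 9.74 CPM at 0 min, 10.2 and 12.9 CPM at 5 min, 13.0 and 14.7 CPM at 10 min, 15.8 and 14.0 CPM at 30 min, and 25.9 and 25.0 CPM at 240 min. Every library with insulin was above both libraries at 0 min, and the means of the 5 times were in the order of time. The log2 fold change against 0 min was 0.23 at 5 min (adjusted p = 0.359), 0.49 at 10 min (adjusted p = 0.113), 0.61 at 30 min (SE 0.11, adjusted p = 0.0110) and 1.38 at 240 min (SE 0.10, adjusted p = 6.35e-09). A further log2 fold change of 0.77 lay between 30 and 240 min (adjusted p = 5.73e-06).

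At 10 min the ZNF367 value, with an unadjusted p of 2.16e-04, passed with edgeR's likelihood ratio test (adjusted p = 0.00446), without a filter on low counts (4.88e-04) and with only these times in the model (0.0247), and with DESeq2 it did not (0.141). The call at 30 min was lost without replicate 1 at 0 min (adjusted p = 0.0877), without replicate 2 at 0 min (0.106) and without replicate 1 at 30 min (0.116), and it held without replicate 2 at 30 min (0.0229). With limma on log2(TPM + 1) the adjusted p at 30 min was 0.338.

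Against 0 min, edgeR's quasi-likelihood test called 0 of the 10 genes at 5 min and 0 at 10 min, where 0% and 0.137% of all genes tested were called. At an unadjusted p under 0.05 the counts were 3 of the 10 genes at 5 min (E2F1, CDT1 and MCM5, all with lower values) and 2 at 10 min (ZNF367, with higher values, and E2F1, with lower values), and 1976 and 710 of the 13852 genes. Over all genes DESeq2 called 1 gene at 5 min and 23 at 10 min, and the likelihood ratio test called 19 and 43. The median log2 fold change of the 10 genes was -0.06 at 5 min, -0.03 at 10 min and -0.06 at 30 min.

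Between 30 and 240 min, a comparison that leaves the deep library at 0 min out, 8 of the 10 genes rose and 0 fell, where 38.2% of all genes were called, 19.8% as higher and 18.4% as lower. The change was 1.07 on the log2 scale for CCNE2, 0.92 for CCNE1, 0.44 for MCM6 and 0.27 for CCND1, with adjusted p of 3.33e-07, 1.90e-09, 3.14e-05 and 0.00174. The count was 7 with DESeq2 and with only these times in the model, which did not call MCM2, and 6 in the limma fits on TPM, which called neither MCM2 nor CCND1 (adjusted p = 0.0517 to 0.0974 for CCND1). It was also 6 without replicate 2 at 30 min and without replicate 1 at 240 min, where E2F1 and MCM2 did not pass. CDT1 and MCM5 did not pass, each with a log2 fold change of 0.02, and the 95% intervals were -0.16 to 0.20 for CDT1 and -0.11 to 0.15 for MCM5. In the joint test of the 4 later times against 0 min 7 of the 10 genes were called, against 38.3% of all genes, and CDT1, MCM2 and MCM5 were not.

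**Figure D4:**
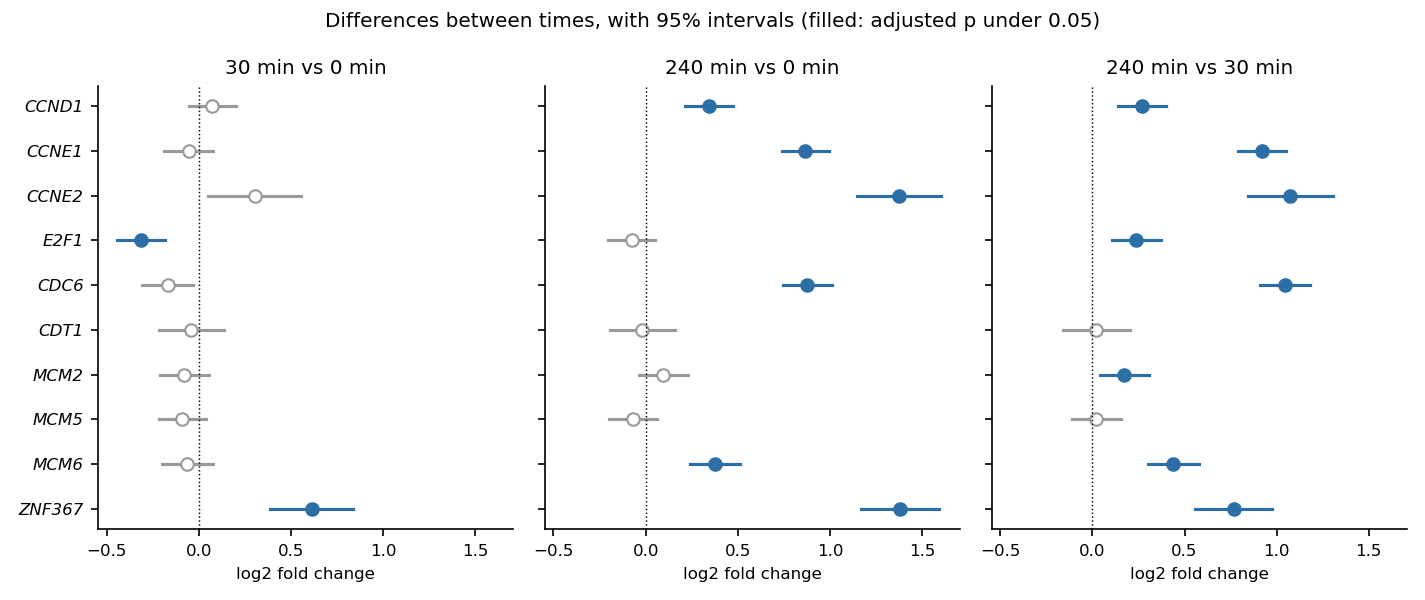
Log2 fold changes (x axis) of the 10 genes with 95% intervals for 30 min against 0 min, 240 min against 0 min and 240 min against 30 min, where filled blue points passed at an adjusted p under 0.05 in edgeR's quasi-likelihood test. At 240 min CCNE2 and ZNF367 lie at 1.38 and CDC6 and CCNE1 at 0.88 and 0.87, whereas the intervals of E2F1, CDT1, MCM2 and MCM5 include 0.

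Where libraries were scaled by the 92 ERCC spike-in transcripts in place of TMM, the median log2 fold change of all genes shifted to -0.12 at 240 min, -0.13 at 30 min and -0.33 at 10 min. At 240 min 4 of the 10 genes were then called, CCNE1, CCNE2, CDC6 and ZNF367, with log2 fold changes of 0.75, 1.26, 0.75 and 1.26. CCND1 had 0.22 (adjusted p = 0.536) and MCM6 had 0.25 (adjusted p = 0.464), and at 30 min neither E2F1 nor ZNF367 passed (adjusted p = 0.911 each). At 10 min, where CCND1 and CCNE2 lay above their level at 0 min with TMM, their log2 fold changes were -0.27 and -0.17 with this scaling. Between 30 and 240 min it called the same 4 genes as at 240 min against 0 min, with log2 fold changes of 0.94 for CCNE1, 1.08 for CCNE2, 1.06 for CDC6 and 0.78 for ZNF367. Over all genes 1059 were called at 240 min with this scaling, 31.3% of them higher, against 5676 with TMM, 50.2% of them higher. The ERCC share of the counts was 1.59% to 2.36%, and replicates of 10 min differed most in it, with 1.73% and 2.36%.

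Other genes of the pathway were read from 5 lists of genes with related roles, none of which holds any of the 10. Their counts at 240 min stand against the 20.6% of all genes tested that were called as higher and the 20.4% called as lower. Of 21 genes of licensing and origin firing, 12 rose at 240 min and 0 fell, with a median log2 fold change of 0.30. CDC7, the kinase that fires licensed origins, had a log2 fold change of 0.86, MCM10, which activates the helicase, 0.74, and ORC6, a subunit of the origin recognition complex, 0.58. The other MCM subunits were divided, as MCM4 (0.31) and MCM7 (0.23) rose and MCM3 had a value of 0.06 (adjusted p = 0.386). GMNN, which encodes geminin, the inhibitor of CDT1, had 0.06 (adjusted p = 0.427). With ERCC scaling 2 genes of this list were called as higher.

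Of 15 tested genes of the D and E cyclin kinases, their inhibitors and other regulators such as CDC25A (CDKN1C was not tested), 5 rose and 1 fell. The share called was close to the 41.0% of all genes tested. CCND2, another D-type cyclin, had a log2 fold change of 0.95 (SE 0.20). Its mean level was low, 2.47 CPM at 0 min, 4.41 CPM at 30 min and 5.10 CPM at 240 min. In edgeR's quasi-likelihood test the CCND2 difference at 30 min against 0 min, 0.75, did not pass (adjusted p = 0.196). Neither did that between 30 and 240 min, 0.20 (adjusted p = 0.459). CDC25A, the phosphatase that activates CDK2, had a log2 fold change of 0.94, and CDK6 0.25. CDKN1B, which encodes the inhibitor p27, fell by 0.33 on the log2 scale, and 2 genes of the list were called as lower when either replicate at 240 min was left out. The median of the list was 0.10, and DESeq2 called 3 genes as higher, as did edgeR without replicate 2 at 0 min. Of 12 E2F, DP and pocket protein genes, 8 rose and 2 fell. E2F7 (0.60) and E2F8 (0.58), repressors of the family, and RBL1 (0.52), the pocket protein p107, rose, and RBL2, the pocket protein p130, and RB1 fell by 0.55 and 0.48. E2F2 (0.47) and E2F3 (0.50), the activators beside E2F1, rose, while E2F1 itself did not pass.

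Of 31 genes of enzymes and other proteins of S phase, called S phase enzymes for short, 16 rose and 3 fell. Of all genes tested, 20.6% were higher and 20.4% lower. The median log2 fold change of the list was 0.21. UHRF1, CLSPN and DTL rose by 0.64, 0.64 and 0.62, and PRIM2, POLA1 and RFC1 fell by 0.49, 0.21 and 0.16. DTL encodes the receptor of the ubiquitin ligase that destroys CDT1 in S phase, and PRIM2 and POLA1 encode subunits of the polymerase that starts DNA strands. Of 20 genes of G2 and mitosis, 1 rose and 12 fell, against the same shares of all genes, with a median of -0.23. CCNA2, cyclin A2, rose by 0.17, and KIF20A, CDC25C and CENPA fell by 0.51, 0.43 and 0.42. The rise of CCNA2 was not called with DESeq2, with ERCC scaling, with limma on log2(TPM + 1) or log2(TPM + 0.1) over all genes, without replicate 2 at 0 min or without replicate 1 at 240 min, and 10 of the S phase enzymes were called as higher without replicate 2 at 0 min. With ERCC scaling the numbers called as higher and lower were 2 and 0 for the cyclin kinase list and 0 and 1 for the S phase enzymes. They were 0 and 1 for G2 and mitosis and 0 and 2 for the E2F, DP and pocket protein genes. At 5, 10 and 30 min 0 genes of the 5 lists passed edgeR's quasi-likelihood test, and at an unadjusted p under 0.05 each list had 0 to 4 genes.

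**Figure D5:**
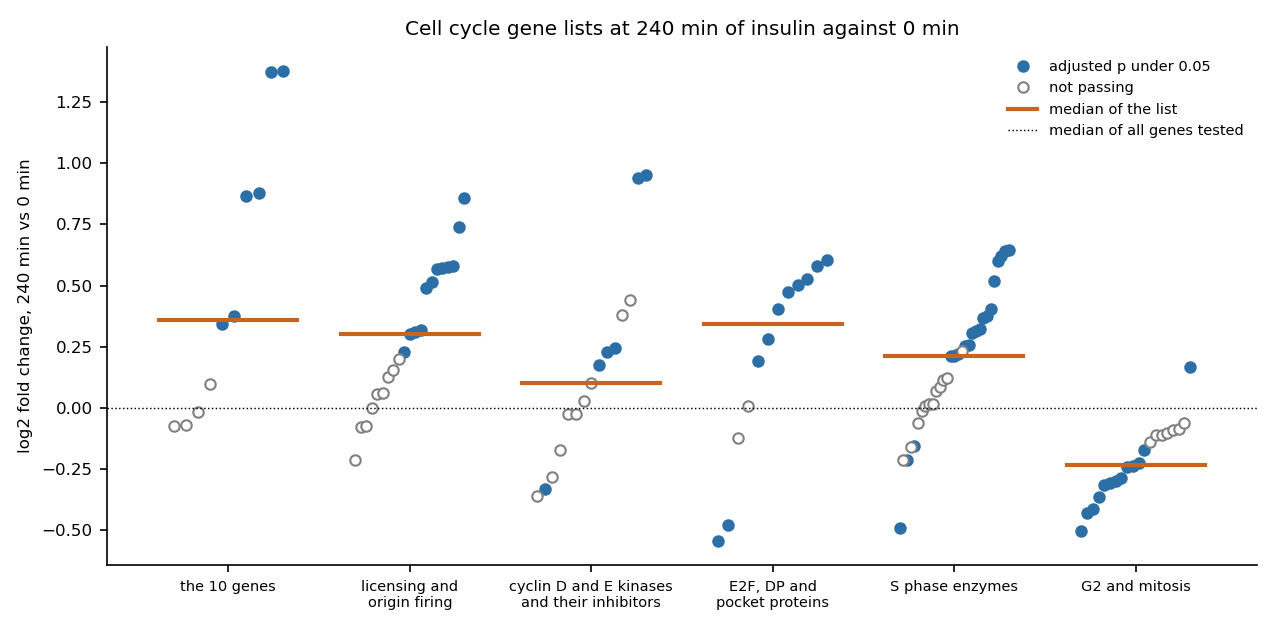
Log2 fold changes at 240 min against 0 min (y axis) of the 10 genes and of the tested genes of 5 lists (x axis), each point a gene, filled where the adjusted p was under 0.05, with the median of each list as an orange line and the median of all genes tested as a dotted line. The medians are 0.36 for the 10 genes, 0.30 for licensing and origin firing and -0.23 for G2 and mitosis.

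The 10 genes were also compared by their course, as the root mean square difference of their 5 centred log2 time means, a description over 5 times. The means were not scaled, so the size of a change counts as well as its shape. Genes that changed little therefore lie close together. CDT1 and MCM5 were the closest pair, with 0.042, followed by CDT1 and MCM2 (0.055), CCNE1 and CDC6 (0.062) and CCND1 and MCM6 (0.064). ZNF367 was 0.15 from CCNE2 and at least 0.23 from each of the other 8. Among the 10378 other genes whose mean reached 5 CPM, the 3 closest to ZNF367 were FOXC1 (0.12), PDIK1L (0.12) and LOC100996579 (0.14). The 3 closest to CCNE2 were FOXC1 (0.072), ZBTB8A (0.075) and LOC100996579 (0.081). ICA1L (0.015), IDI1 (0.021) and LIPG (0.027) were closest to CDC6. IDI1 encodes an enzyme of isoprenoid and cholesterol synthesis, and LIPG a secreted lipase.

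A ChIP-seq library of the insulin receptor (IR) from HepG2 cells gave 1971 peaks, deposited with a score each, from 1 library, so that there is no replicate. Its label names insulin, at the same concentration as the labels of all RNA-seq libraries. Its title names no time of insulin, so the peaks were not placed at a time of the course. A gene was taken to have a peak where one overlapped its body extended by 5 kb. Of the 10 genes 1, CDT1, had a peak, against 15.7% of the 13852 tested genes. The peak lay at chr16:88870003-88870617 on hg19, with its centre 124 bases after the annotated start and a score of 69, below the median score of 79 over all peaks, which placed it at rank 1078. The whole RefSeq window of CDT1, printed only in part above, was found once in GRCh37, at chr16:88869947-88870246. Of the bases of the whole window, 244 lay inside the peak, the E2F letters among them. None of the windows of the other 6 genes overlapped a peak. CDT1, the 1 gene with a peak, did not pass the test at any time, and the 6 genes that rose at 240 min had none within 5 kb. The share with a peak among all genes called as higher was not computed, against the 15.7% of all tested genes. A link between peaks and rises was not tested. With an extension of 20 kb MCM2 also had a peak, 8713 bases before its start, with a score of 13, and 21.3% of the tested genes had one at that extension.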

How the data were processed

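RNA-seq of HepG2 cells at 5 times of insulin, with 2 replicates per time, was analysed from the files the authors deposited. The authors trimmed single-end reads with Trim Galore 0.6.4, aligned them to hg19 with STAR 2.6.1d, counted them per gene as reverse-stranded with featureCounts 1.6.4 and deposited raw counts without normalization. Duplicates were marked, with no statement in the sources used here of their removal. The authors also deposited StringTie gene abundances as TPM. For the ChIP-seq library of the insulin receptor they aligned reads with BWA 0.7.17-r1188, called peaks with MACS2 2.2.7.1 and deposited the score of each peak with a HOMER annotation.

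The 92 ERCC rows entered neither library sizes nor tests. All 10 libraries were fitted in 1 edgeR model (edgeR 4.0.16, R 4.3.3) with time as the only factor, TMM scaling, the filterByExpr filter and quasi-likelihood tests, and p-values were adjusted over the 13852 genes tested. The text's CPM are TMM-scaled counts, apart from those of the cell type markers, which are relative to the unadjusted total. Standard errors were obtained from each fold change with its F statistic. Promoter windows are from RefSeq on GRCh38.p14, and each of 7 was matched once in GRCh37 by its sequence. Python 3.11.15, pandas 2.3.3 and matplotlib 3.10.9 were used.

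Named are the 10 genes, the 3 largest rises and falls called at 240 min in each list, and the 3 genes closest in course to the 3 of the 10 with the widest range. Other genes of the lists (MCM3, MCM4, MCM7, GMNN, E2F2 and E2F3) were named after their values were seen. The 10 genes, the lists and the tests were chosen with earlier results of these data known. Alternatives were DESeq2 1.42.0, the likelihood ratio test, RLE and upper-quartile normalization, ERCC scaling, no filter or at least 10 counts in every library, only the times compared, a replicate block, limma 3.58.1 on log2(TPM + 1), with a pseudocount of 0.1, and with a minimum mean TPM of 1, and each replicate left out in turn. The ChIP input was not used.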

Additional observations from a re-analysis of the deposited data

How the results depend on the processing

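The 6 genes called at 240 min against 0 min kept their call and direction in every alternative and without each replicate, apart from CCND1 and MCM6 with ERCC scaling. The other counts of the 10 genes were less stable. At 10 min 1 gene was called with the likelihood ratio test, without a filter and with only the times compared, against 0. At 30 min, against 2, the count was 0 with ERCC scaling and with each of the limma fits on TPM, 1 with only the times compared, and 0 to 1 when single replicates were left out. With ERCC scaling 4 genes were called at 240 against 30 min, against 8. The count at any time, against 7, was 4 with ERCC scaling and 5 to 6 in the limma fits on TPM. It was 8 with upper-quartile normalization and without a filter. IR peaks were at 2 genes with 20 kb (21.3% of tested genes) and at 0 with peaks above the median score (8.78%), against 1 (15.7%). A replicate block, on numbers that did not pair the libraries (10 correlations of -0.12 to 0.13, 2 of them over 0.1), gave 6 genes at 240 min, 2 at 30 min, 8 at any time and 0 at 5 and 10 min. It called 5845 of all genes at 240 min and 59 at 30 min.

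Signs turned only in values that did not pass the test in either fit. With ERCC scaling CCND1 was at -0.271 at 10 min and -0.06 at 30 min, CCNE2 at -0.17 and CDC6 at -0.333 at 10 min, and MCM2 at -0.0228 at 240 min. CDT1 at 240 min was at 0.00959 with upper-quartile normalization, and at 0.022, 0.0227 and 0.022 in the limma fits with pseudocounts of 1 and 0.1 and with a minimum TPM, in which CCND1 at 5 min was at 0.000159, 0.000153 and 0.000159. Without single replicates, values at 5 min ranged from -0.0783 to 0.0492 for CCND1, -0.159 to 0.019 for CDC6 and -0.106 to 0.0221 for MCM6. Those at 10 min ranged from -0.0864 to 0.0955 for CDC6 and -0.102 to 0.0267 for MCM6, and those at 30 min from -0.196 to 0.085 for CDT1, -0.191 to 0.0194 for MCM2 and -0.161 to 0.021 for MCM6. CDT1 lay between -0.0856 and 0.036 at 240 min, and between -0.102 and 0.176 at 240 against 30 min, where MCM5 lay between -0.0658 and 0.119. The cause of these changes was not tested.

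Over all genes, 144, 74 and 160 were called at 5, 10 and 30 min without a filter on low counts and 19, 43 and 96 with the likelihood ratio test, against 0, 19 and 46. At 240 min 61.6% to 63.0% of calls were higher in the limma fits on TPM, against 50.2%. Depth limits CCNE2 most, with 120 reads in its lowest library, and 2 replicates per time limit every comparison. Leaving out 1 of 2 replicates assumes that the lone library varies like the other times.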
